A study of Mus musculus with 15 samples.

Results

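The comparison concerns 9 RNA-seq libraries of activated mouse B cells, 3 whose titles end in the letter B against 6 whose titles end in A or C, out of 15 libraries in the whole series. All 9 were selected by their titles alone. Each came from wild-type naive splenic B cells of male mice aged 3 months, immunised 9 days earlier with sheep red blood cells, an antigen that drives germinal centre formation in the spleen. The sorted naive cells were kept in embryonic stem cell medium and stimulated for 5 days. Every letter has 1 library titled CD40 (an antibody to the costimulatory receptor CD40 at 5 µg/ml with interleukin 4 at 80 ng/ml), 1 titled CpG (a DNA ligand of Toll-like receptor 9, 2 µM) and 1 titled LPS (a bacterial ligand of Toll-like receptor 4, 25 µg/ml). The sources do not settle whether interleukin 4 was also added to the CpG and LPS cultures, and they do not state what the letter stands for. The remaining 6 libraries, from sorted germinal centre (GC) and unstimulated naive B cells, entered neither contrast. They served for one alternative fit, for the scaling of list sums and for levels given as values.

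As background, signals through CD40, Toll-like receptors and the interleukin 4 receptor drive naive B cells to grow, divide and recombine their heavy chain locus, so that IgM is replaced by IgG1, IgE or another class. The transcription factors NF-κB and IRF4, and AP-1 family factors such as BATF, act early in this response. Cells that go on to secrete antibody switch on Prdm1, Xbp1 and the endoplasmic reticulum machinery, while immunoglobulin transcripts come to fill much of their RNA.

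The 9 libraries held 25397624 to 36272197 gene counts, and 15727 genes were tested. Libraries of one letter resembled each other more than libraries of one stimulus. Across genes, log2 CPM (a gene's counts per 1000000 counts of its library) correlated at 0.954 to 0.981 between libraries sharing a letter, at 0.928 to 0.955 between those sharing a titled stimulus, and at 0.924 to 0.960 between those sharing neither. Whether the letter, rather than the stimulus named in the title, marks the culture condition cannot be told from the sources, so a difference between letters and one between stimuli cannot be told apart. The C library titled CD40 stood apart, with the fewest genes detected (16314, against up to 19320) and a first principal component score of 94.4, against 36.2 and 45.6 for the other C libraries. Since the libraries of a letter may share a source, the p-values below measure the spread between these libraries, which may be technical. B cell identity markers were high throughout: the 10 listed genes summed to 6669 to 6919.9 in B, 6802 to 7127 in A and 5749.6 to 6145 in C CPM (list sums are scaled over all 15 libraries).

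The B libraries were set apart by 1508 genes higher than in both A and C (9.59% of those tested) and by 1578 lower than in both (10.03%). Such a call required an adjusted p under 0.05 for B minus A and for B minus C, with the same sign, in the quasi-likelihood test of edgeR (Benjamini-Hochberg adjusted, two-sided), with the titled stimulus as a block. Both directions together made 19.6% of the genes tested. In 2853 of these 3086 genes (92.4%) the 3 B libraries lay outside the range of all 6 others, and of all tested genes 13.3% had the B libraries above and 12.8% below all others. Changes of at least 2-fold in both contrasts were found for 223 higher genes (1.42%) and 261 lower genes (1.66%). Contrast by contrast, 2288 genes were higher and 2605 lower in B than in A (14.5% and 16.6%, together 31.1%), and 2721 were higher and 2757 lower in B than in C (17.3% and 17.5%, together 34.8%). The same rule applied to A against B and C gave 880 higher and 665 lower genes (5.60% and 4.23%), and applied to C it gave 1026 higher and 881 lower (6.52% and 5.60%). The median log2 change over all genes was -0.01 against A and 0.02 against C. With all 15 libraries in one fit, where the coefficient of biological variation was 54.3% instead of 16.4%, 147 genes were higher and 164 lower.

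**Figure D1:**
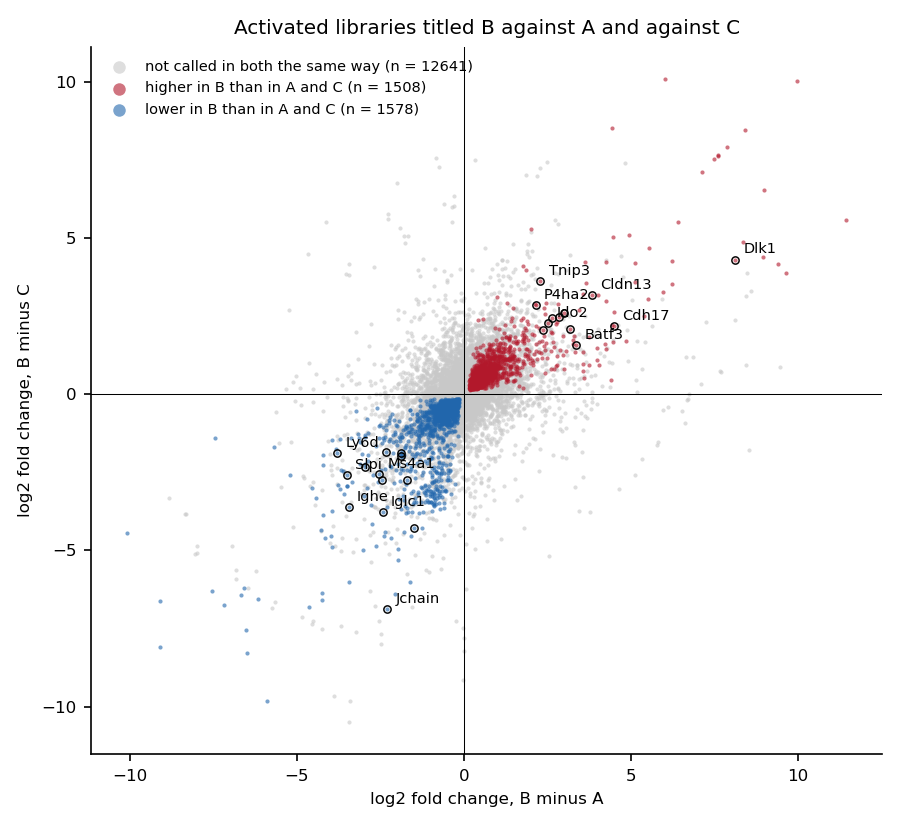
Each point is one of the 15727 tested genes, with the log2 fold change of B minus A on the horizontal axis and of B minus C on the vertical axis. Red points were higher in B than in both (1508), blue points lower than in both (1578), and open circles mark the ranked genes named in the text and the marker genes.

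The genes that changed most among those at 10 CPM or more were of several kinds. Higher in B were Tnip3, the tryptophan-degrading enzyme Ido2 and adhesion molecules, and lower were IgE transcript, lambda light chains, the surface protein CD20 and the signalling proteins Lax1 and Slamf6. In bulk RNA, fewer cells of a type and less RNA per cell cannot be told apart. Throughout, values per library are CPM scaled over the 9 libraries, in the order CD40, CpG and LPS, and averages are given ± SD over the 3 libraries of a letter.

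Batf3 (ENSMUSG00000026630, GRCm38 chromosome 1, 191097847 to 191108945, plus strand) encodes an AP-1 family factor best known for its requirement in cross-presenting dendritic cells. It measured 205, 194 and 171 CPM in B, against 19.3, 16.2 and 19.7 in A and 69.9, 60.02 and 61.3 in C. No B library overlapped any other, and A was the lowest group. The log2 change was 3.37 ± 0.09 (SE) over A and 1.58 ± 0.08 over C (edgeR adjusted p 2.8e-20 and 2.2e-14).

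Tnip3 (ENSMUSG00000044162, chromosome 6, 65525313 to 65634040, plus strand) encodes a partner of the NF-κB inhibitor A20. Its values were 32.2, 52.5 and 42.8 CPM in B, against 8.30, 9.22 and 7.96 in A and 2.39, 4.73 and 3.19 in C. Here C, not A, was the lowest group, and the B libraries again stood clear. The change amounted to 2.29 ± 0.16 over A and 3.63 ± 0.17 over C on the log2 scale (edgeR adjusted p 1e-11 and 5.8e-15).

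Ighe (ENSMUSG00000087642, chromosome 12, 113269260 to 113273248, minus strand), the constant region of IgE, went the other way. It gave 202, 202 and 225 CPM in B, against 2048, 2490.3 and 2371 in A and 2645, 2718 and 2354 in C. Every B library lay far below every A and C library, and A and C overlapped. The log2 change was -3.45 ± 0.07 against A and -3.61 ± 0.07 against C (edgeR adjusted p 2.1e-21 and 3.1e-21), so the gene marks B by its low level. Since Batf3, Tnip3 and Ighe were chosen as markers with earlier results of these data known, their p-values are not independent evidence.

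Several other genes were higher in B. Ido2, an enzyme that degrades tryptophan, measured 152, 145 and 179.8 CPM in B, against 24.3, 31.4 and 27.02 in A and 29.5, 31.4 and 38.3 in C (log2 change 2.52 ± 0.09 and 2.27 ± 0.09). The related Ido1 rose too, by 2.24 and 1.68 on the log2 scale.

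Cdh17, a cadherin, had 38.5, 47.8 and 31.6 CPM in B, against 1.29, 1.48 and 2.42 in A and 7.47, 9.53 and 9.03 in C. All 3 B libraries were clear of C, and C was clear of A. Dlk1, an imprinted membrane protein related to Notch ligands, had 7.88, 18.8 and 12.2 CPM in B, against 0, 0.135 and 0 in A and 0.462, 0.861 and 0.606 in C. It was close to 0 outside B, and among the B libraries the one titled CpG was the highest. The claudin Cldn13 averaged 44.9 ± 1.20 CPM in B, against 3.20 ± 1.43 in A and 4.98 ± 0.610 in C.

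Further ranked genes rose by 2.04 or more on the log2 scale in both contrasts. They were the Ras exchange factor Rasgrf1 (27.9 CPM in B, 4.52 in A and 5.11 in C), the glycoprotein Gpnmb (29.7 CPM in B, 4.11 in A and 5.38 in C), the growth factor Tgfb3 (17.2 CPM in B, 3.30 in A and 4.25 in C), the exchange factor Mcf2l (14.5 CPM in B, 1.79 in A and 2.51 in C), Nkain1 (10.9 CPM in B, 1.23 in A and 2.53 in C) and the collagen prolyl hydroxylase P4ha2 (15.8 CPM in B, 3.55 in A and 2.19 in C). Exons of Mcf2l and Tgfb3 overlap other annotated genes, and the strand setting of the counting is not given in the sources used here, so their counts are uncertain.

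**Figure D2:**
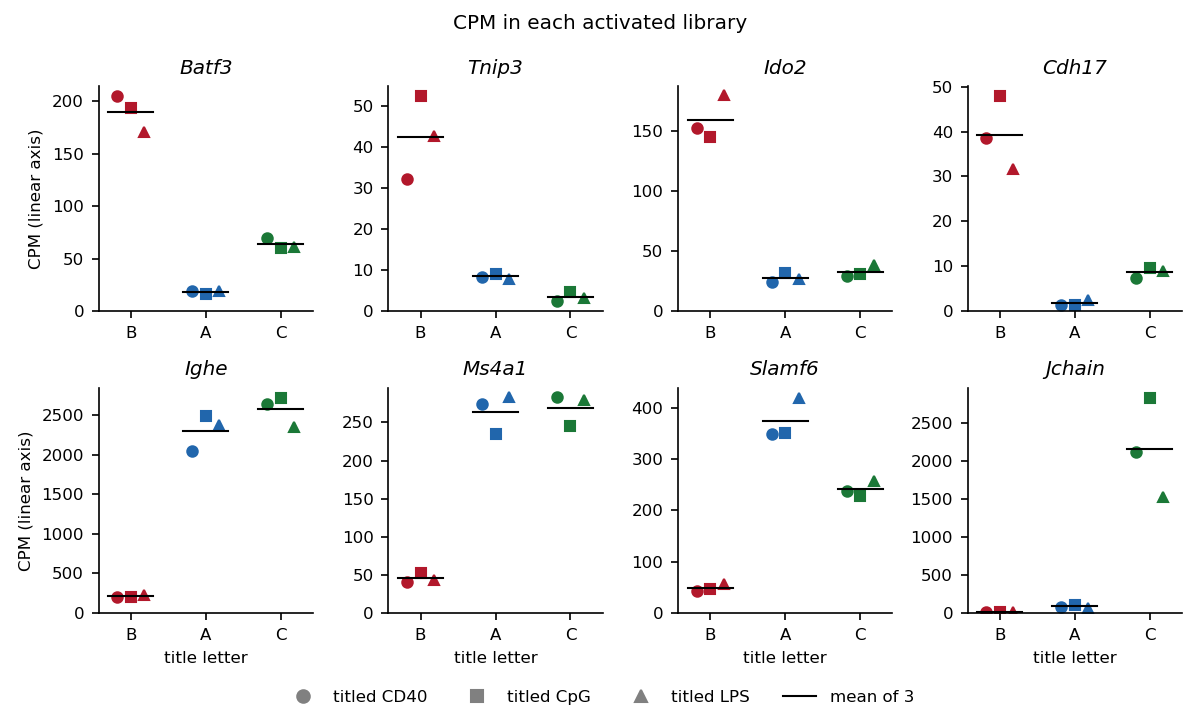
CPM on linear axes for 8 genes in each of the 9 activated libraries, grouped by title letter (B, A, C). Symbols give the titled stimulus and bars the mean of 3 libraries. B libraries lie above all others for Batf3, Tnip3, Ido2 and Cdh17, and below all others for Ighe, Ms4a1, Slamf6 and Jchain.

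Among genes lower in B, Ms4a1, which encodes CD20, measured 40.9, 51.9 and 43.7 CPM in B, against 274, 234 and 283 in A and 283, 245 and 279 in C. A and C overlapped and the B libraries lay far below both (log2 change -2.53 ± 0.09 and -2.56 ± 0.09). The other called B cell identity genes, Cd79b and Cd37, were higher in B, by 0.39 and 0.64 and by 0.37 and 0.60. Slamf6, a lymphocyte adhesion receptor, had 42.6, 45.9 and 56.1 CPM in B, against 349, 350.4 and 419 in A and 238, 228 and 257 in C, and its groups were all separate. Lax1, an adaptor that restrains antigen receptor signalling, averaged 36.3 ± 1.82 CPM in B, against 197 ± 8.18 in A and 244 ± 22.6 in C. Ly6d, a GPI-anchored surface protein, measured 8.45, 10.9 and 6.68 CPM in B, against 101, 130.4 and 124 in A and 35.1, 38.2 and 23.7 in C, with A the highest. Cdk6, a G1 kinase, averaged 6.82 ± 1.84 CPM in B, against 25.2 ± 2.04 in A and 25.2 ± 4.75 in C. Endou, an endoribonuclease, averaged 11.4 ± 3.17 CPM in B, against 57.3 ± 1.15 in A and 40.99 ± 3.44 in C. Slpi, a secreted protease inhibitor, averaged 14.95 ± 2.06 CPM in B, against 170.04 ± 14.6 in A and 91.7 ± 19.4 in C.

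Genes of glycolysis and the hypoxia response rose together. Of 36 tested members 30 were higher in B than in both A and C and none was lower, against 9.59% and 10.03% of all genes. The list's median log2 change was 0.75 over A and 0.84 over C. Its summed level was 21343 to 23606 in B, 13135 to 14186 in A and 12701 to 14016 in C CPM, so the B libraries lay above all others.

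Bhlhe40, a stress-induced repressor, measured 161, 172 and 164 CPM in B, against 41.3, 45.2 and 35.4 in A and 43.4, 51.9 and 37.3 in C, a rise of 2.03 ± 0.08 and 1.92 ± 0.08 on the log2 scale. Egln3, an oxygen-sensing prolyl hydroxylase that is itself a target of hypoxia-inducible factor, measured 87.04, 119.7 and 95.8 CPM in B, against 22.6, 25.6 and 18.9 in A and 33.02, 44.2 and 38.05 in C. Neither gene overlapped between B and the rest. Ndrg1, another hypoxia-induced gene, averaged 19.8 ± 0.470 CPM in B, against 7.06 ± 1.31 in A and 4.39 ± 0.249 in C. Ldha, which makes lactate from pyruvate, measured 1655, 1706 and 1596 CPM in B, against 864, 924 and 821 in A and 1043, 1070.3 and 1004 in C.

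The 30 called members rose by 0.35 to 2.17 over A and by 0.35 to 2.86 over C, and they took in glucose and lactate transporters, kinases and dehydrogenases. The 6 members without a call were Car9 (0.81 and 1.32), Adm (0.24 and 2.02), Vegfa (-0.33 and 0.24), Pfkfb4 (0.24 and 0.38), Hk2 (0.40 and -0.05) and Pfkfb3 (-0.01 and 0.27), each pair being the log2 change over A and over C. Bhlhe40, Ndrg1 and Car9 overlap genes on the opposite strand.

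**Figure D3:**
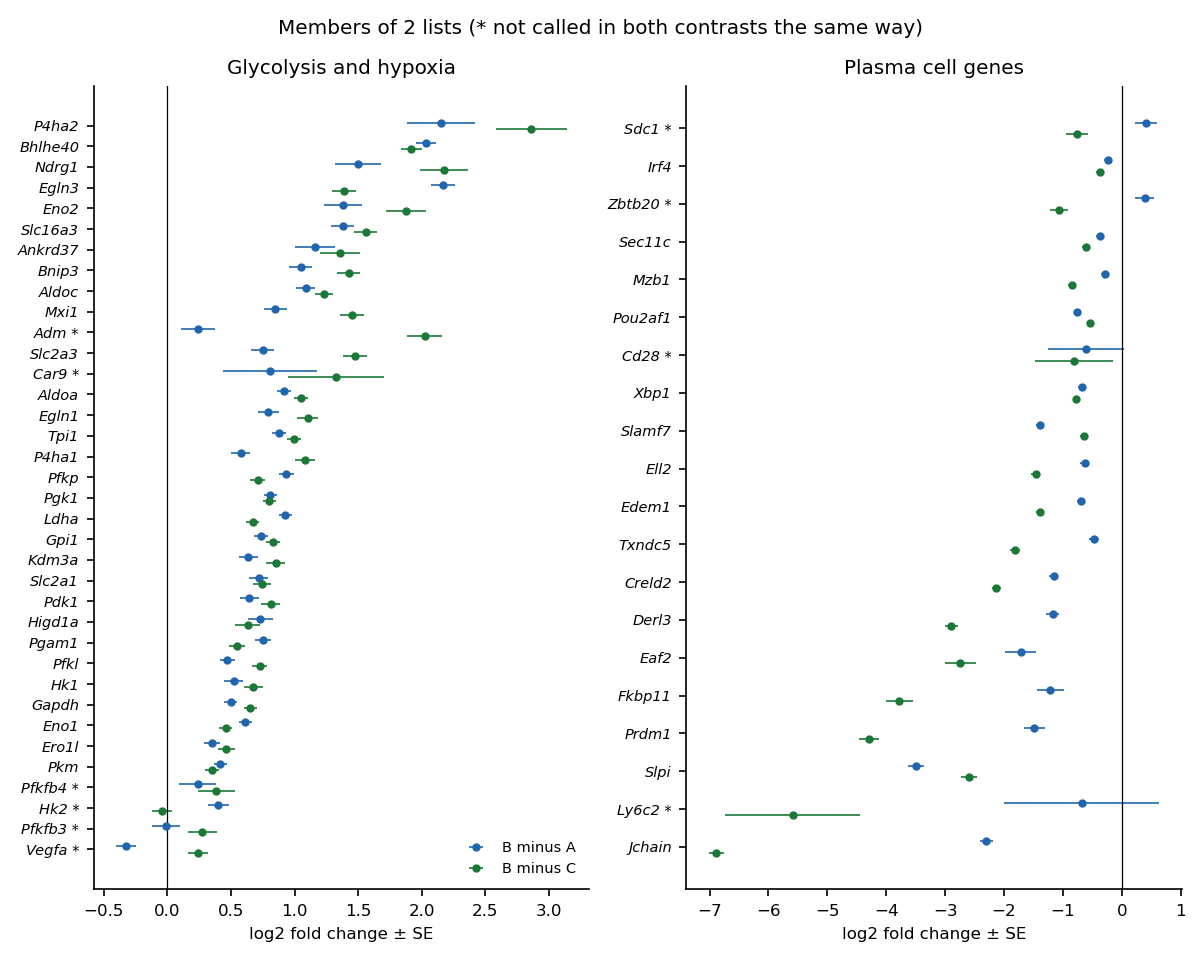
Log2 fold change with its standard error for every tested member of the glycolysis and hypoxia list (left) and of the plasma cell list (right), B minus A in blue and B minus C in green. Asterisks mark members not called in both contrasts the same way, 6 on the left and 4 on the right.

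The NF-κB list leaned to B in its calls. Its summed level was 5814 to 6140 in B, 5657 to 6004 in A and 4215 to 4603 in C CPM, so B and A overlapped. The marker Tnip3, chosen with earlier results of these data known, is on this list. Higher than in both were 15 of 31 members, and 1, Nfkb1, was lower, against 9.59% and 10.03% of all genes. The median log2 change was 0.43 over A and 0.44 over C. Nfkbiz, an atypical nuclear IκB protein, measured 27.04, 38.3 and 30.3 CPM in B, against 6.86, 7.47 and 5.83 in A and 13.1, 13.2 and 11.3 in C. Nfkbia, which encodes the inhibitor IκBα and is itself an NF-κB target, measured 282, 331 and 284 CPM in B, against 137, 142 and 133 in A and 115, 127 and 112 in C. In both genes the lowest B library exceeded the highest A or C library. The log2 change was 2.24 and 1.34 for Nfkbiz and 1.12 and 1.34 for Nfkbia.

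Subunits did not all move alike. Nfkb1, chosen after its values were seen, averaged 672 ± 9.003 CPM in B, against 943 ± 54.4 in A and 854 ± 31.4 in C. Rela had 0.08 and 0.25 on the log2 scale and Rel -0.03 and 0.54. Both passed the threshold against C but not against A, so neither was called against both. For Rela the difference from C did not pass without the CpG or LPS library of B or of C. The A1 survival protein genes Bcl2a1a, Bcl2a1b and Bcl2a1d had log2 changes of 0.72 to 1.18 over A and 0.85 to 1.65 over C. All 3 were called higher, but Bcl2a1d in the B library titled CD40 (273 CPM) lay below the A library titled LPS (296 CPM), and its call was lost without the stimulus as a block (edgeR adjusted p = 0.159 over A and 0.0930 over C). Their reads are hard to assign because the copies are nearly identical.

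Of 19 AP-1, BATF and IRF factors, 7 were higher, the marker Batf3 among them, and 3 lower, against 9.59% and 10.03% of all genes. The median log2 change was -0.21 over A and 0.75 over C. Against A alone 7 were higher and 8 lower, beside 14.5% and 16.6% of all genes. Against C alone 8 were higher and 3 lower, beside 17.3% and 17.5%. Fosl2 measured 130.3, 149 and 115 CPM in B, against 14.9, 19.5 and 15.7 in A and 33.5, 44.9 and 30.7 in C, and the stress-induced Atf3 measured 63.2, 70.9 and 65.2 CPM in B, against 5.41, 4.78 and 6.55 in A and 26.3, 29.3 and 22.5 in C. For both genes A was lowest, C intermediate and B highest, with no overlap. Bach2, a repressor that holds back plasma cell differentiation, averaged 74.8 ± 7.15 CPM in B, against 30.6 ± 3.96 in A and 35.4 ± 7.75 in C. Exons of Bach2 overlap a gene on the opposite strand. Irf4, needed for class switching and plasma cells, was the reverse (-0.23 and -0.38 on the log2 scale), as were Bach1 and Mafk, all 3 chosen after their values were seen. The call of Irf4 was lost without the CD40 library of B or the LPS library of A, that of Mafk without the CD40 library of B or C, and that of Bach1 without the LPS library of B or the CpG or LPS library of C. Without the B library titled CD40, 1 of the list was lower.

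Receptors of cytokines and tumour necrosis factor (TNF) family ligands were more often higher than lower. The cytokine receptor and JAK-STAT list had 15 of 37 higher and 4 lower, and the TNF receptor list 5 of 18 higher and none lower. Of all genes 9.59% were higher and 10.03% lower. Il1r2, a decoy receptor for interleukin 1, measured 171, 178 and 179 CPM in B, against 51.3, 59.1 and 42.5 in A and 45.5, 67.8 and 58.7 in C. Stat5a averaged 457 ± 35.1 CPM in B, against 222 ± 11.8 in A and 171 ± 13.3 in C. Tnfrsf9, which encodes the costimulatory receptor 4-1BB, measured 11.3, 17.5 and 16.1 CPM in B, against 0.185, 1.68 and 0.852 in A and 2.85, 6.45 and 6.44 in C. Tnfrsf13c, the receptor for the survival factor BAFF, averaged 437 ± 28.3 CPM in B, against 193 ± 7.54 in A and 274 ± 1.99 in C. Il6st, the shared signalling chain of the interleukin 6 family, averaged 26.03 ± 3.25 CPM in B, against 55.3 ± 5.22 in A and 54.1 ± 2.27 in C and was lower in B. Without the B library titled CpG, the B library titled LPS or the C library titled LPS, 2 members of the JAK-STAT list were lower.

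Antigen receptor signalling genes were higher for 8 of 27 and lower for 2, against 9.59% and 10.03% of all genes. Nr4a1 and Egr3, both induced by antigen receptor signals, rose by 1.35 and 1.80 and by 2.10 and 1.28 on the log2 scale. Cd72, an inhibitory coreceptor, averaged 119.5 ± 6.20 CPM in B, against 57.9 ± 9.92 in A and 28.03 ± 2.94 in C, and the phosphatase gene Ptpn6 averaged 454 ± 5.06 CPM in B, against 276 ± 15.2 in A and 296 ± 10.6 in C. Exons of Cd72 overlap a gene on the opposite strand. Egr1 and Inpp5d, chosen after their values were seen, were lower, with log2 changes of -0.43 and -0.65 and of -0.69 and -0.20. Neither call was made without the B library titled LPS, and 1 was made without the B library titled CD40, the A library titled LPS or the C library titled LPS.

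S100, annexin and galectin genes, which encode calcium-binding and membrane-associated proteins, were higher for 11 of 20 and lower for none. Of all genes 9.59% were higher and 10.03% lower. Anxa2 measured 47.6, 77.7 and 49.1 CPM in B, against 8.77, 9.45 and 8.71 in A and 11.2, 22.8 and 11.6 in C. The CpG library of B was the highest of the 9, and the CpG library of C was the highest of the other 6. Anxa4 rose by 0.99 and 1.20 and S100a1 by 1.46 and 1.22 on the log2 scale. Exons of Anxa2 and Anxa4 overlap genes on the opposite strand.

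Plasma cell genes fell. Of 20 tested members 16 were lower in B than in both A and C and none was higher, against 10.03% and 9.59% of all genes. The median log2 change was -0.69 over A and -1.43 over C. Jchain, which joins IgM and IgA subunits, measured 16.8, 18.8 and 17.6 CPM in B, against 85.9, 113 and 68.8 in A and 2122, 2823 and 1527 in C. B was lower than A and far lower than C, and the gap between A and C was wider than that between B and A. Prdm1, which encodes the plasma cell regulator Blimp-1, measured 2.80, 3.38 and 4.71 CPM in B, against 10.7, 11.5 and 8.25 in A and 78.1, 77.8 and 57.7 in C, and Eaf2, a transcription elongation factor partner, averaged 4.66 ± 1.90 CPM in B, against 15.1 ± 2.30 in A and 30.9 ± 6.79 in C. The 4 members without a call, Ly6c2, Cd28, Sdc1 and Zbtb20, had log2 changes of -0.68 and -5.59, -0.61 and -0.81, 0.41 and -0.76 and 0.39 and -1.07 over A and C. Sdc1, the surface marker of plasma cells, averaged 10.2 ± 1.66 CPM in B, against 7.62 ± 0.864 in A and 17.1 ± 2.35 in C.

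The unfolded protein response and secretion list was lower too, with 18 of 23 lower and 1 higher, against 10.03% and 9.59% of all genes. Its median was -0.46 over A and -1.20 over C. Sec24d, a component of vesicle coats leaving the endoplasmic reticulum, averaged 10.4 ± 2.11 CPM in B, against 24.3 ± 4.47 in A and 58.6 ± 11.6 in C. Pdia4, a protein disulphide isomerase, measured 344, 347 and 362 CPM in B, against 597, 622 and 598 in A and 985, 984 and 819 in C. Each letter held its own range, lowest in B and highest in C. Ddit3, the stress factor CHOP, was the one member that rose (0.40 and 0.57), a call chosen after its value was seen and lost without the B libraries titled CD40 or CpG or the A library titled CpG. Exons of Ddit3 overlap other annotated genes.

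Immunoglobulin transcripts were low in B. Of 13 constant region and J chain genes, 7 were lower than in both and none higher, against 10.03% and 9.59% of all genes. Variable segments were lower for 47 of 89 heavy chain, 68 of 97 kappa and 3 of 3 lambda genes, with none higher. All immunoglobulin genes together took 1.18% ± 0.0200 of counts in B, against 1.90% ± 0.0389 in A and 6.93% ± 1.57 in C (SD, n = 3 each). Although every B library was below every other, the two-sided exact permutation test of 3 against 6 gave p = 0.0952 (0.107 adjusted over the 4 shares tested), where 0.0119 is the smallest it allows.

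The class of heavy chain differed as well. Ighe made up 2.90% ± 0.285 of heavy chain constant counts in B, against 21.7% ± 2.03 in A and 7.25% ± 1.30 in C. The exact permutation p of B against A and C pooled was 0.0238, 0.0476 after adjustment over the 4 shares. Ighe was chosen as a marker with earlier results of these data known, so this p is not independent evidence. By the mean shares, A lay further from C than B did. Without any one B or A library the difference did not pass (exact permutation p = 0.0714 to 0.143), while it kept its direction, from -11.7 to -9.85 percentage points. With letters permuted within stimuli it did not pass either (exact permutation p = 0.0741). Ighg1 took 40.996% ± 1.11 in B, 39.8% ± 1.27 in A and 26.4% ± 3.13 in C, a difference that did not pass (exact permutation p = 0.107). Ighm took 48.97 to 52.6% in B, 34.3 to 37.97% in A and 59.5 to 68.3% in C. Ighg2b took 1.51 to 2.10% in B, 0.0736 to 0.0896% in A and 0.373 to 0.466% in C, the highest shares of the 3 letters being in B.

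Lambda chains made up 3.59% ± 0.427 of light chain constant counts in B, against 8.09% ± 0.187 in A and 5.56% ± 0.566 in C (exact permutation p = 0.0238, 0.0476 adjusted). With letters permuted within stimuli, the lambda difference did not pass (exact permutation p = 0.0741). Here too A and C were pooled, and A lay further from C than B did. Iglc1 measured 38.7, 45.8 and 57.2 CPM in B, against 250.3, 244 and 262 in A and 596, 773 and 556 in C and Iglc3 16.7, 15.4 and 22.2 CPM in B, against 65.7, 60.3 and 72.3 in A and 71.5, 77.6 and 64.6 in C. The lambda constant genes are near-identical copies, so how their reads were divided is uncertain. With B set against A alone or C alone, 3 against 3, no share could pass, since 0.1 is then the smallest p.

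**Figure D4:**
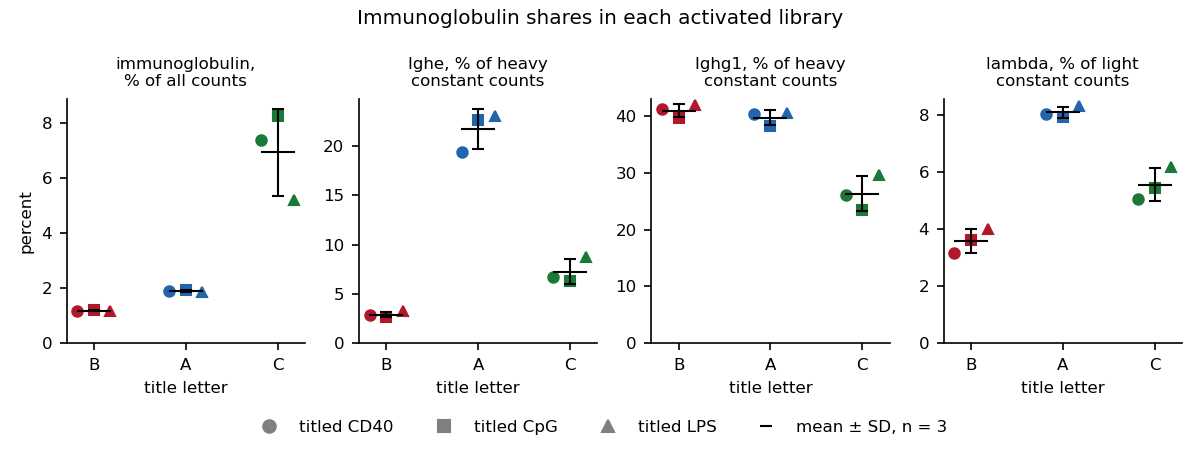
Percent of counts in each of the 9 libraries, by title letter (B, A, C), for all immunoglobulin genes, Ighe and Ighg1 among heavy chain constant counts, and lambda among light chain constant counts. Bars give mean ± SD of 3 libraries. B lies lowest for the immunoglobulin, Ighe and lambda shares, and beside A for Ighg1.

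The interleukin 4 response was mixed, with 5 of 22 members higher and 6 lower, against 9.59% and 10.03% of all genes. Tgm2, a transglutaminase, measured 119, 147 and 84.2 CPM in B, against 19.5, 21.02 and 13.4 in A and 35.9, 44.9 and 37.99 in C. The chemokine Ccl22 averaged 367 ± 89.7 CPM in B, against 715 ± 145 in A and 738 ± 41.8 in C, with log2 changes of -0.96 and -1.03. Socs3 rose by 1.07 and 1.01. In the class switching list 4 of 25 were lower, beside 10.03% of all genes, or 2 without the CpG library of B or of A. There 1 was higher, beside 9.59% of all genes, a call lost without any one B or C library. Xrcc5, which encodes the end-joining protein Ku80, measured 6.996, 7.26 and 5.63 CPM in B, against 26.02, 26.1 and 22.9 in A and 16.6, 19.1 and 16.5 in C, below all others in each B library.

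Cell cycle genes were more often lower than higher. Of all genes 10.03% were lower and 9.59% higher. In S phase 22 of 36 fell and none rose, with a median log2 change of -0.32 in both contrasts. Ccne2, cyclin E2, averaged 6.60 ± 0.835 CPM in B, against 15.6 ± 0.514 in A and 15.1 ± 2.94 in C, and the helicase subunit Mcm2 averaged 107 ± 7.72 CPM in B, against 172 ± 19.99 in A and 161 ± 12.8 in C. Of the G2 and mitosis list 11 of 36 were lower and 2, Anln and Cenpa, higher, or 1 without the LPS library of B or of C (both genes were chosen after their values were seen). Mki67, the proliferation antigen, averaged 411 ± 20.4 CPM in B, against 575 ± 22.6 in A and 664 ± 22.3 in C, and the phosphatase gene Cdc25b averaged 42.2 ± 3.94 CPM in B, against 139.9 ± 5.31 in A and 129 ± 4.54 in C. Ccnd3, cyclin D3, was higher, by 1.01 and 1.08 on the log2 scale. Exons of Ccnd3, Ccne2 and Cdc25b overlap genes on the opposite strand.

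Interferon genes gave different counts against A and against C, a difference that was not tested. Of 27 type I interferon response genes 5 were lower in B than in both and none higher, but 26 were lower in B than in C. Against A 5 were higher and 5 lower. Of all genes 10.03% were lower and 9.59% higher than in both. In single contrasts 17.5% of all genes were lower than in C, and 14.5% were higher and 16.6% lower than in A. The count of 5 was 3 without the B library titled CD40 or the A libraries titled CpG or LPS, and 1 without the B library titled LPS. In the interferon gamma list 4 of 23 were higher and 3 lower, among them the GTPases Gbp5 (2.02 and 0.61) and Gbp4 (-1.38 and -1.45), whose family members share exons in the annotation.

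**Figure D5:**
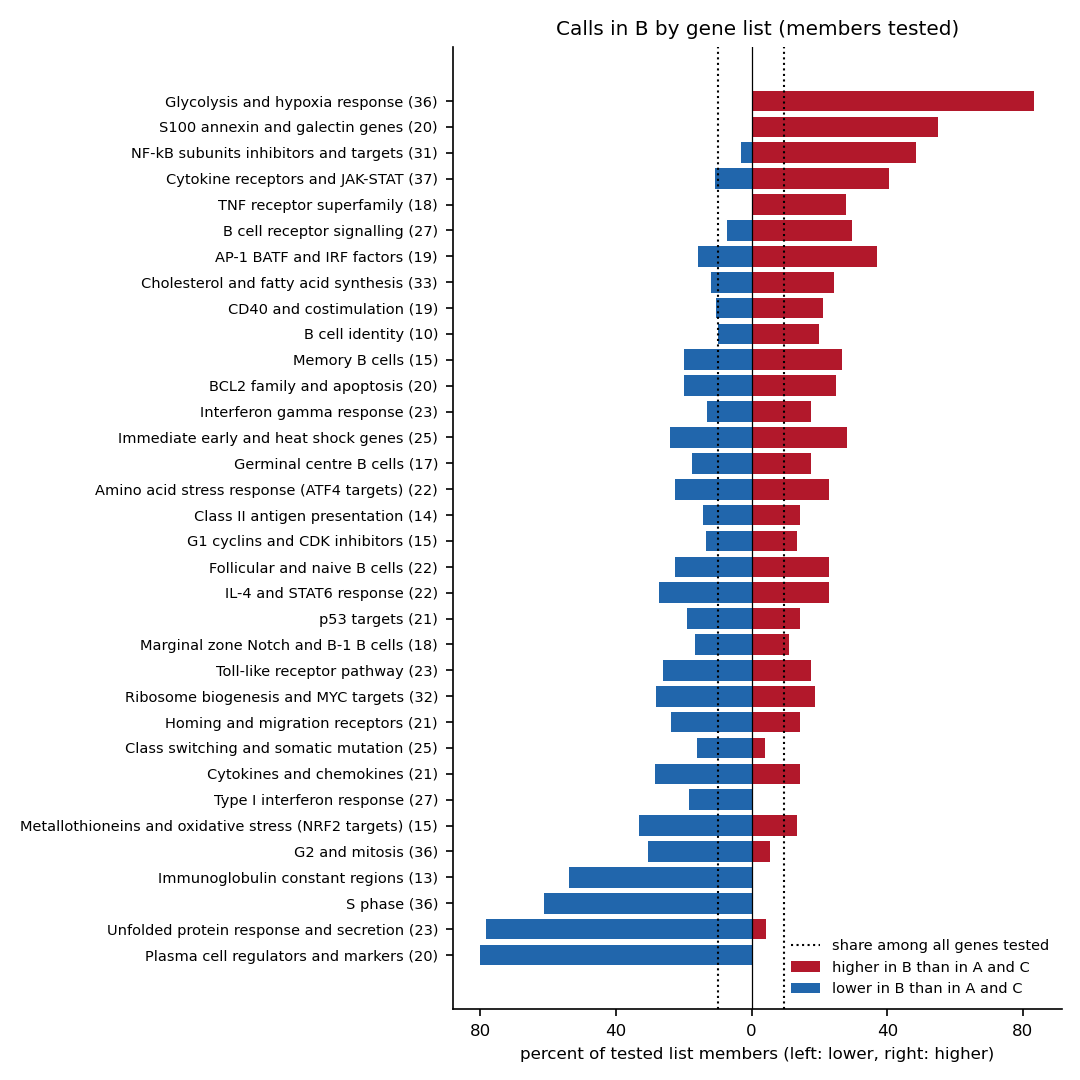
Percent of tested members of each gene list that were higher (right, red) or lower (left, blue) in B than in both A and C, for pathway lists with 10 or more tested members. Dotted lines give the shares among all genes, 9.59% higher and 10.03% lower. Glycolysis and hypoxia leads on the right and plasma cell genes on the left.

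Markers of other cell types differed in level between lists. High enough to be tested were 0 of 12 neutrophil, 8 of 14 T cell and 7 of 15 myeloid markers. Neutrophil markers summed to 0.302 to 0.995 in B, 0.124 to 0.480 in A and 0.791 to 1.16 in C CPM. Of these, 5 of 12, Ly6g and Elane among them, were at 0 in all 9. T cell markers summed to 35.5 to 39.2 in B, 43.4 to 48.4 in A and 38.2 to 45.2 in C, with 1 of 14 at 0 in all 9. The dendritic cell list had the largest sum, at 506 to 568 in B, 192 to 212 in A and 303 to 333 in C. Of its 7 tested members 3 were higher than in both and 1 lower, against 9.59% and 10.03% of all genes. Erythroid markers summed to 5.13 to 6.365 in B, 1.24 to 2.73 in A and 3.08 to 4.93 in C. Megakaryocyte and platelet markers summed to 7.46 to 9.66 in B, 4.59 to 6.21 in A and 3.20 to 3.79 in C. In these 3 lists the B libraries lay above all others. Batf3 led the dendritic cell list. Its cytokine receptor Flt3 was also higher in B, at 163, 202 and 169.7 CPM in B, against 26.8, 44.5 and 36.2 in A and 43.5, 64.3 and 57.2 in C. Of its 12 genes 2, Clec9a and Clec10a, were at 0 in all 9. Myeloid markers summed to 52.6 to 54.8 in B, 45.2 to 51.7 in A and 53.7 to 54.6 in C. Of these, 4 of 15, Csf1r and C1qb among them, were at 0 in all 9. Among markers on these lists Cd68, Cd8a, Itgax and Itga2b were also called higher, and Mpeg1, Fscn1 and Eomes lower. The calls of 3 of them were lost when single libraries were left out: Itga2b without the CD40 library of A or B or the CpG library of B, Itgax without the CpG or LPS library of A, the CD40 or LPS library of B or the CD40 library of C, and Eomes without any one library other than the C library titled CD40. The part of other cells in these results was not tested.

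The 250 bases before the RefSeq start (build GRCm38.p6) are given for the markers Batf3 and Tnip3, and for Nfkbia, P4ha2 and Slc16a3 (the lactate exporter). Batf3 holds neither the AP-1 motif TGANTCA nor the NF-κB motif (GGGA, any base, TT, any base, CC) in this window. Tnip3 and Nfkbia are from the NF-κB list, and P4ha2 and Slc16a3 from the hypoxia list. Nfkbia, P4ha2 and Slc16a3 were picked from called members whose window held the list's own motif, so their matches were fixed in advance. Windows are chr1:191098164-191098413 (plus strand), chr6:65590148-65590397 (plus strand), chr12:55492648-55492897 (minus strand), chr11:54100674-54100923 (plus strand) and chr11:120948817-120949066 (plus strand). Capitals mark an NF-κB match in Tnip3 and Nfkbia, the hypoxia response core ACGTG in P4ha2 and Slc16a3, and in Batf3 a CACGTG (which holds ACGTG on both strands) and the STAT motif TTCNNNGAA. Motifs were searched on both strands, and ACGTG was added after the hypoxia list was seen. The windows of Batf3, Tnip3, P4ha2 and Slc16a3 lie inside the longer gene spans of the GENCODE annotation, and that of Nfkbia lies outside.
Batf3: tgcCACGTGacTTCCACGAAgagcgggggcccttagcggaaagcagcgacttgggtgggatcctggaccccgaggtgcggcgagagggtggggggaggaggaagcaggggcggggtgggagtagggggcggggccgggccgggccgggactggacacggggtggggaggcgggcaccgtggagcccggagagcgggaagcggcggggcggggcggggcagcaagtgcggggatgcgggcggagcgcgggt
Tnip3: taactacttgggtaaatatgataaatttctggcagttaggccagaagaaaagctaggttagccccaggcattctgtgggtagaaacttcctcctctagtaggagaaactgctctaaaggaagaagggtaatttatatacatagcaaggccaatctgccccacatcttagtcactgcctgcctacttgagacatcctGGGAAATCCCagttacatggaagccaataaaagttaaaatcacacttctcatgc
Nfkbia: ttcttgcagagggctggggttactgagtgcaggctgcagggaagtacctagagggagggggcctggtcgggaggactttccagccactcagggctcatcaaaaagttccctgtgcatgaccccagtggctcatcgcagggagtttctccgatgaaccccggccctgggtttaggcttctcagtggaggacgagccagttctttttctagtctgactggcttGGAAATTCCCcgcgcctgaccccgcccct
P4ha2: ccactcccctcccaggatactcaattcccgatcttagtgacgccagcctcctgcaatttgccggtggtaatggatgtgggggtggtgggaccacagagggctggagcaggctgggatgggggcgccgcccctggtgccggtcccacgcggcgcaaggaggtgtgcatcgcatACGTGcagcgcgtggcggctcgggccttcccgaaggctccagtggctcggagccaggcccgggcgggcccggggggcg
Slc16a3: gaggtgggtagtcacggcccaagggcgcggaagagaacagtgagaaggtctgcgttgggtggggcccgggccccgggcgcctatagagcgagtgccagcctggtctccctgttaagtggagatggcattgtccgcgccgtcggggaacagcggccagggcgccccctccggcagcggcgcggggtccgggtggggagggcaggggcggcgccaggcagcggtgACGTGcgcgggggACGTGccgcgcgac

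Among the 10273 tested genes with a 300-base window (the 250 bases and 50 after the start), the NF-κB motif was present in 1.6%, in 2.2% of genes higher in B and in 1.86% of genes lower in B. In the NF-κB list it was found for 8 of 26 genes. The hypoxia core was present in 29.3% of all windows, 30.7% of those higher in B and 31.9% of those lower, and in 22 of 32 of the glycolysis and hypoxia list. The AP-1 motif was present in 6.06% of all windows, 7.5% of the higher and 5.94% of the lower. These shares were not tested, and a match describes the letters only.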

How the data were processed

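RNA-seq libraries were made with a directional poly(A) kit per the labels. STAR 2.7.10a, featureCounts 2.0.6 and DESeq2 are named in the submitters' processing notes with builds mm10 and GRCm38. The annotation release, strand setting and treatment of multi-mapping reads are not given in the sources used here. The deposited values are raw read counts per Ensembl gene, with no normalisation by the authors.

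From these counts, 54809 of 54838 gene IDs were named from GENCODE M21 (GRCm38). Genes were kept by filterByExpr on the letters, scaled by TMM and fitted in edgeR 4.0.16 (R 4.3.3, limma 3.58.1) with letter and titled stimulus as terms, leaving 4 residual degrees of freedom. P-values were two-sided and adjusted by Benjamini-Hochberg across the 15727 genes, each contrast on its own, with a threshold of 0.05. Summed levels of lists and levels in uncultured cells are CPM scaled over all 15 libraries, other levels over the 9. Standard errors are the absolute log2 change divided by the root of the F statistic. In simulated counts, 71 of 100 genes changed 2-fold and 89 of 100 changed 4-fold were recovered in both contrasts, with 0 of 15019 unchanged genes called. The simulation held no stimulus effect, no difference between A and C and no source shared within a letter. It therefore does not measure false calls in these data. Replicates of a letter differed by more than sampling noise. DESeq2 1.42.0, other scaling and filters, immunoglobulin removal and left-out libraries were tried as alternatives.

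The letter comparison, its marker genes and the 45 gene lists (844 genes) were chosen with earlier results of these data known. Genes named were Batf3, Tnip3 and Ighe, the 12 higher and 12 lower genes with the largest smaller absolute log2 change at 10 CPM or more, up to 4 called members of each list, and members without a call given as values. Some genes that this rule names are not reported here. Stimulus labels paired the libraries only weakly. Deviations from the letter means correlated at 0.000362 to 0.0644 between libraries of one stimulus. Between libraries sharing neither letter nor stimulus they correlated at -0.0573 to 0.0208. Exact permutation tests used the 84 assignments of 3 of 9 libraries. Intervals for counting error are not given. Some named genes rested on few counts, so their changes are less certain. In the B libraries titled CD40, CpG and LPS, Ly6c2 had 0, 0 and 6 counts and Eomes 10, 10 and 2. In those of A, Dlk1 had 0, 4 and 0.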

Additional observations from a re-analysis of the deposited data

Results flagged for a closer look

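For 7 of the ranked genes, a naive or GC library lettered B lay on the opposite side of A and C from the activated B libraries. These groups have 1 library per letter, so the differences were not tested. Values are CPM scaled over all 15 libraries, for the library lettered B, then A and C.

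In GC cells, Mcf2l, higher in the activated B libraries, had 2.67 CPM in the library lettered B, below 3.15 in A and 3.88 in C. In naive cells Cdh17, also higher in the activated B libraries, had 0 CPM in B, against 8.53 and 9.74 in A and C. The other 5 genes were lower in the activated B libraries. Slpi had 1.31 CPM in B in naive cells, against 0 and 0.9 in A and C, and 46.5 in GC cells, against 31.8 and 27.8. Ly6d had 701 CPM in B in naive cells, against 439 and 655, and 50.03 in GC cells, against 47.5 and 39.8. In GC cells Iglc1 had 329 CPM in B, against 270.3 and 252, Jchain had 1554, against 1453 and 1223, and Cdk6 had 41.7, against 35.2 and 35.2. The naive library lettered B also stood apart in genes outside this set, in either direction. It had 0 raw counts for Cd68 (180 in A, 227 in C) and Ndrg1 (188 and 135), but 534 for Fscn1 (0 and 4). Whether that library differs as a whole was not tested.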

How the results depend on the processing

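The counts of 1508 higher and 1578 lower genes moved by over 1.5 times under 2 alternatives. With all 15 libraries in the fit they were 147 and 164, and with calls of at least 2-fold 223 and 261. The counts of 4893 genes for B minus A and 5478 for B minus C became 685 and 831 with all 15 libraries and 1076 and 1247 at 2-fold. All 147 and 164 genes were among the original calls. Leaving out 1 library gave 1157 to 1481 higher, 1126 to 1570 lower, 3730 to 5373 for B minus A and 4263 to 5502 for B minus C. Without the stimulus as a replicate block, counts were 1380, 1462, 4573 and 5198. DESeq2 gave 1504 higher and 1561 lower. No named gene with a call against both A and C changed direction under any alternative. Log2 changes without a call did so for 6 genes. Without the libraries of 1 stimulus, Cd28 against C was 0.221 (CpG), Hk2 against C 0.0737 (CD40), Ly6c2 against A 1.84 (CD40), Pfkfb3 against A 0.0391 (CpG) and Rel against A 0.00159 (LPS). Without single libraries, Cd28 against C ranged from -1.63 to 0.0346, Hk2 against C from -0.110 to 0.0494, Ly6c2 against A from -5.29 to 1.46, Pfkfb3 against A from -0.0648 to 0.0915, Rel against A from -0.0992 to 0.0285 and Rela against A from -0.00352 to 0.142. The all-15 fit kept 13 of 30 glycolysis and hypoxia calls, 9 of 15 NF-κB, 6 of 16 plasma cell and 1 of 22 S phase calls.

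The Ighe share differed by -11.6 percentage points (B minus A and C), from -13.2 to -9.85 without single libraries. It missed the threshold against A alone (-18.8) or C alone (-4.35), where the exact permutation test of 3 against 3 cannot go below 0.1, and when letters were permuted within stimuli (-11.6, exact p = 0.0741). The lambda share did likewise, at -4.50 against A, -1.97 against C and -3.24 within stimuli, and ranged from -3.59 to -2.94. The immunoglobulin share, -3.23, ranged from -3.74 to -2.47 and, before adjustment over the 4 shares, went under 0.05 without any 1 A library (exact permutation p = 0.0357). The Ighg1 share ranged from 5.996 to 9.43.

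With 3 libraries a letter, 4 residual degrees of freedom and a letter whose meaning is not given, differences between letters cannot be told apart from differences between sources, cultures, preparations or stimuli.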

Other observations

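Several genes high in B were at or near 0 in the uncultured cells of the series. On the scale of all 15 libraries, in the order B, A and C, Batf3 had 0, 0 and 0 CPM in GC cells and 0, 0 and 0 in naive cells. Tnip3 had 0, 0.0617 and 0 in GC cells and 0, 0 and 0 in naive cells. Ido2 had 0.0534, 0 and 0.509 in GC cells and 0 in naive cells, and Dlk1 was at 0 in all 6. Cldn13 had counts in 1 of the 6, the naive library lettered B.

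Among the genes low in B, Ms4a1 was abundant in uncultured cells, with 1947, 2163 and 1776 CPM in GC cells and 1107, 1285 and 1371 in naive cells. Ighe had 15.6, 16.9 and 17.7 in GC cells and 0 in naive cells. Slamf6 had 152, 170.4 and 162 in GC cells and 241, 257 and 192 in naive cells.

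Further lists had members on either side, against 9.59% of all tested genes higher and 10.03% lower. In the apoptosis list 5 of 20 were higher in B than in both A and C and 4 lower, with Pmaip1, the pro-apoptotic protein Noxa, averaging 13.2 ± 2.51 CPM in B, against 29.2 ± 4.90 in A and 28.02 ± 3.70 in C. Among oxidative stress genes 5 of 15 were lower, including Hmox1, haem oxygenase (5.80 CPM in B, 14.5 in A and 15.1 in C) and Txnrd1, thioredoxin reductase (68.5 CPM in B, 119 in A and 111 in C), and 2 were higher, including the metallothionein Mt1 (41.8 CPM in B, 3.07 in A and 22.1 in C). Of 21 homing and migration receptors 5 were lower, including the integrin chains Itga4 (6.33 CPM in B, 15.3 in A and 37.6 in C) and Itgal (57.5 CPM in B, 133 in A and 223 in C), and 3 higher. Mef2b, a factor of germinal centre B cells, averaged 5.90 ± 1.41 CPM in B, against 18.02 ± 1.60 in A and 32.9 ± 9.11 in C.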
